A study of Mus musculus with 2 samples.

Results

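The genes described here code for the pore-forming and accessory subunits of voltage-gated calcium, sodium and potassium channels and of the other potassium channels. Members were the gene rows of the count tables whose symbol starts with Kcn or Cacn, or with Scn followed by digits and a or b, and that held at least 50 unique molecular identifiers (UMIs, 1 per captured transcript) over both libraries. Kcnj11, Cacna1d and Cacnb3 were left out. Of 31053 gene rows 139 matched the symbols, 44 of these fell under 50 UMIs (10 of them at 0), and 92 were members. Just inside the limit were Cacna1f with 57, Kcng3 with 59 and Kcnh5 with 60 UMIs, and just outside it Kcna3 with 47, Kcna4 with 42 and Cacng1 with 41. The members held 27 voltage-gated potassium alpha subunits and 8 of their auxiliary genes, 10 two-pore potassium channels, 9 calcium- or sodium-activated potassium channel genes and 8 inward rectifiers. They also held 9 calcium alpha-1 subunits, 4 alpha-2-delta, 3 beta and 3 gamma subunits, 5 sodium alpha and 4 sodium beta subunits, and the non-coding RNAs Kcnq1ot1 and Kcnmb4os2.

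The cells were islet cells of wild-type NOD/ShiLtJ mice, in which the immune system attacks the islets, taken at 15 weeks of age and profiled by droplet single-cell RNA sequencing (10x Genomics 3' v3). One library came from mice on a diet of 20% HC and 1 from mice on 16% HC with 4% gluten, and the labels do not expand HC. Each library pooled the cells of 3 mice after islets had been handpicked and dissociated with trypsin, so a difference between the libraries cannot be told apart from a difference between the diets, and no single mouse can be followed. Barcodes numbered 8200 with gluten and 7758 with HC alone, the UMI totals were 88268070 and 116900677, and 15 barcodes occurred in both. In every pair of values below the library with gluten comes first.

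Excitable endocrine cells turn a change in metabolism into hormone release through their membrane channels. In beta cells the ATP-sensitive potassium channel closes as glucose is metabolised, the membrane depolarises, voltage-gated calcium and sodium channels open, and calcium entry triggers exocytosis of insulin granules. Voltage-gated and calcium-activated potassium channels then repolarise the membrane, while two-pore channels carry a background current that sets the resting potential. Alpha, delta and PP cells are also electrically active, and glial, mural and immune cells use potassium channels to hold their membrane potential.

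Cell classes were gated without any channel gene. Endocrine types were taken by their leading hormone, which had to make up at least 5% of the UMIs of a cell and at least 3 times every other hormone. This gave 1290 and 1588 beta, 1114 and 614 alpha, 587 and 294 delta, and 42 and 41 PP cells. Beta cells carried a median of 7 of 7 further beta markers, alpha cells 4 of 5, delta cells 2 of 3 and PP cells 3 of 3. The PP list did not set its type apart, since alpha cells carried a median of 2 and 3 and delta cells 2 of its 3 markers, so PP cells rest on their hormone. Gates on lineage markers gave 28 and 28 Schwann cells, 69 and 38 pericytes, 151 and 113 fibroblasts, 299 and 135 endothelial, 28 and 33 ductal, 1328 and 2248 T, 980 and 1173 B, 244 and 237 macrophages and 132 and 135 dendritic cells. Insulin made up 613791 and 616208 UMIs per 1000000 (counts per 1000000, CPM) in beta cells, which pushes down every other gene there. Levels are therefore given as CPM scaled by the trimmed mean of M values (scaled CPM), so that Scn9a in beta cells, 19.5 and 19.3 in plain CPM, becomes 40.6 and 41.3 scaled CPM. A UMI marks the 3' end of 1 transcript whatever its length, but capture can differ between genes, so levels are compared between classes and not between genes. In these summed cells, fewer expressing cells and less RNA per cell cannot be told apart.

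Each endocrine type was compared with the mean of the other 3 by the quasi-likelihood test of edgeR on UMI sums per class and library, with the library as a block (n = 2 libraries per type), and a gene was called at an adjusted p under 0.05 over 12444 genes. Log2 ratios carry the standard error (SE) of the fit. Of the 92 members 60 passed the filter on low counts in this comparison. A member can pass it through the type where it is high, so the counts below describe the members that passed and support nothing more. In delta cells 32 of the 60 were higher and 10 lower, while 17.8% and 10.8% of all genes tested were called higher and lower. In beta cells 10 were higher and 31 lower, beside 32.7% and 16.9% of all genes. Alpha cells had 19 higher and 13 lower members (all genes 21.3% and 13%), and PP cells, with 42 and 41 cells, 8 higher and 3 lower (all genes 3.1% and 9.19%). The lower members in delta cells numbered 6 without the library block, and those in PP cells 1 with DESeq2. The members' median log2 ratio was 0.77 in delta, -0.78 in beta, 0.24 in alpha and 0.09 in PP cells, against 0.05, 0.16, 0.09 and -0.25 over all genes tested. With types at 0 UMIs set at a floor of 3 counts over both libraries, which touched 8 members, the members' medians were 0.66, -0.83, 0.22 and 0.22. Another scaling, the size factors of DESeq2, shifted the median of all genes by -0.13 in beta and 0.22 in PP cells, and the members' counts to 8 higher and 35 lower in beta and 10 and 3 in PP cells.

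**Figure D1:**
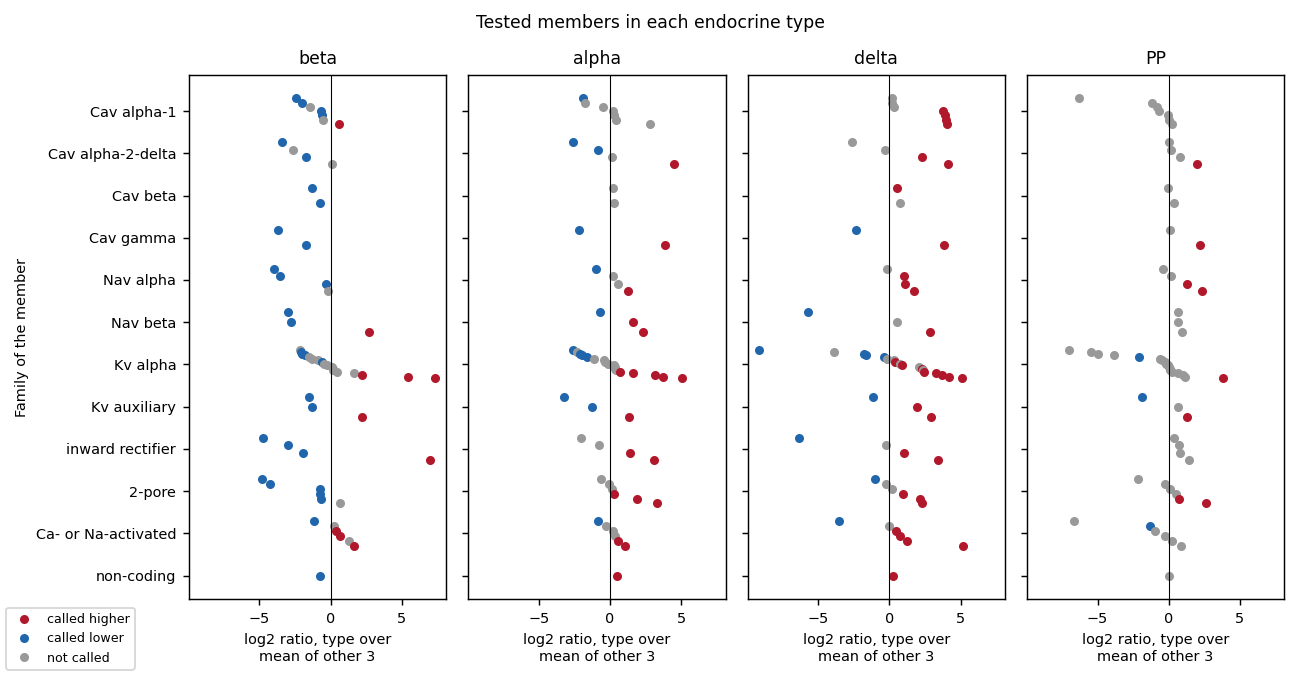
Log2 ratio of each tested member in 1 endocrine type over the mean of the other 3 (x axis), by channel family (y axis), in 4 panels. Each point is 1 of 60 members, red where called higher, blue where called lower and grey where not called, and the points of 8 members with a type at 0 UMIs depend on the small count that the fit adds. In the delta panel 32 points are red, and in the beta panel 31 are blue.

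Comparing every pair of types, an alternative added after seeing the data, shows which members stood apart from each of the other 3 types. Delta cells were above each other type in 16 members (4.6% of all genes) and below each in 3, Kcnh6 and Kcnn3 among them (1.78%). Beta cells were above each in 3 members, Kcnf1 and Kcnj12 among them (13.7%), and below each in 12 (4.38%). Alpha cells were above each in 1 member, Kcnj3 (3.95%), and below each in 1, Kcnmb2 (1.31%). PP cells were below each in 1, Kcnma1 (1.75%), and edgeR called 0 members above each (0.603%), with 1 at an unadjusted p under 0.05 in all 3 pairs.

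**Figure D2:**
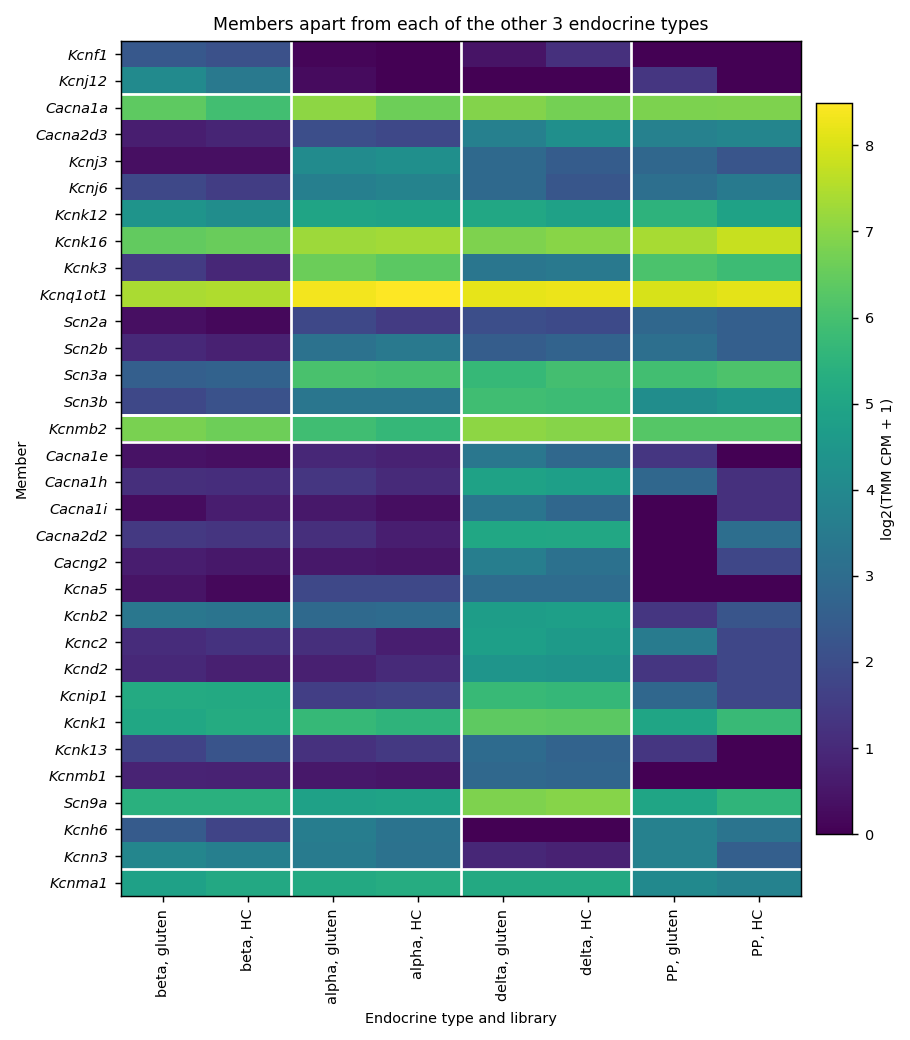
Heat map of log2(scaled CPM + 1) for 32 members that stood apart from each other endocrine type (rows), in 4 types and 2 libraries (columns). TMM CPM on the colour scale are the scaled CPM of the text. White lines part the groups of rows, and the rows from Cacna1e to Scn9a are brighter in both delta columns than in any other column.

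The promoters of members called higher in different classes are shown here to set the sequence before an annotated start side by side. The RefSeq promoter table (GRCm38.p6) held windows for 69 of the 92 members and, as 300-base windows that include 50 bases after the start, 98 starts. The median number of CG dinucleotides per window was 10 for the members and 7 for all 32851 windows in the table. Printed are the 250 bases before the annotated start, 5' to 3' on the gene's strand, with CG in capitals. Kcnf1 (chr12:17176889-17177138, minus strand, 1 CG) and Kcnj12 (chr11:61065554-61065803, plus strand, 4 CG) were higher in beta cells than in each other endocrine type, and Kcnj3 (chr2:55435720-55435969, plus strand, 7 CG) in alpha cells. Kcnd2 (chr6:21215096-21215345, plus strand, 22 CG) and Cacna2d2 (chr9:107399630-107399879, plus strand, 34 CG) were higher in delta cells. The windows of Kcnj12 and Cacna2d2 lie inside the genes as annotated in GENCODE vM21 (chr11:61022564-61071131 and chr9:107399612-107529343). They therefore precede a start within the gene, and which start the cells used was not tested. Scn7a (chr2:66784911-66785160, minus strand, 3 CG), Kcnj8 (chr6:142571615-142571864, minus strand, 6 CG) and Kcnn4 (chr7:24370013-24370262, plus strand, 6 CG) were higher in Schwann cells, pericytes and T cells than in endocrine cells, though not only there: Scn7a was called higher in 3 of the 8 non-endocrine classes tested below, Kcnj8 in 5 and Kcnn4 in 7, and Kcnj12 also in Schwann cells.
Kcnf1: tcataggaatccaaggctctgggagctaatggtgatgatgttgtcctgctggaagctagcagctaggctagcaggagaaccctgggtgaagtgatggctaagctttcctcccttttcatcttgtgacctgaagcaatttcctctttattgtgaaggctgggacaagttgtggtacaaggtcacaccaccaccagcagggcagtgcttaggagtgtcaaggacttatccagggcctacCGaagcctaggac
Kcnj12: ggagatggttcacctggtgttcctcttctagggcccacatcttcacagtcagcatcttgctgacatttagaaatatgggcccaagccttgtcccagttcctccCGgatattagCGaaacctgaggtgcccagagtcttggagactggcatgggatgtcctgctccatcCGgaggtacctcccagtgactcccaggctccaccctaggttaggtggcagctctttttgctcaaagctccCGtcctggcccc
Kcnj3: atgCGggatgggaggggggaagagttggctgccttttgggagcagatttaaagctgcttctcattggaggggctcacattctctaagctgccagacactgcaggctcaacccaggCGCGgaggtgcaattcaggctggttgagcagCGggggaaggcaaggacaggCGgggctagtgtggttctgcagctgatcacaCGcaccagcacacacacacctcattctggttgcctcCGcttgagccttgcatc
Kcnd2: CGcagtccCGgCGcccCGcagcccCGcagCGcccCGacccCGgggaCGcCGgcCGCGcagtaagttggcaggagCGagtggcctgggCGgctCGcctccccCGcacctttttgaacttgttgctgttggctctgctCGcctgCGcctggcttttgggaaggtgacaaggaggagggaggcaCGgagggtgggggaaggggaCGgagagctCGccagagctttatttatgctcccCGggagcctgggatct
Cacna2d2: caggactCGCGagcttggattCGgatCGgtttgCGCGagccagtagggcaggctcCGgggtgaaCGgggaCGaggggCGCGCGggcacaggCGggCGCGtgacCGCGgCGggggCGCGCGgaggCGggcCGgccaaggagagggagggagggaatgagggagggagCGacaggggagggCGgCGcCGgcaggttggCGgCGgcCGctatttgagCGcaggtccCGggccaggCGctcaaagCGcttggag
Scn7a: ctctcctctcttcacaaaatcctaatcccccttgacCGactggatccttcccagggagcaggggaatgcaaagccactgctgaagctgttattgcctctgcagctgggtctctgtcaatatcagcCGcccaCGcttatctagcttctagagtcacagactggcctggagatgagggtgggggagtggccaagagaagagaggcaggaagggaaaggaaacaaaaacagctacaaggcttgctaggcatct
Kcnj8: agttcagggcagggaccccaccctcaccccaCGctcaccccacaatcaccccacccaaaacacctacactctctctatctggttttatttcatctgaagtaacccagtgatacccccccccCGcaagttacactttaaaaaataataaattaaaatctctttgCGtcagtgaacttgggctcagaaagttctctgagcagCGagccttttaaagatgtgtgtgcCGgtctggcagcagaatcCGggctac
Kcnn4: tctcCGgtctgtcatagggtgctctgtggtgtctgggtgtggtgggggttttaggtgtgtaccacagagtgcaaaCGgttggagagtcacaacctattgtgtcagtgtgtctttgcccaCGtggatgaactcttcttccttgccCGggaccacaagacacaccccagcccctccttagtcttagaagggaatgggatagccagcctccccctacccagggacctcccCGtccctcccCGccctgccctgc

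Of the 16 members higher in delta cells than in each other type, 13 had a promoter in the table, and their 18 windows ranged from 1 CG (Kcnmb1) to 43 (Cacna2d2) with a median of 9, so the CG content of these promoters varied widely. Motifs were searched on both strands as plain letters. TATAAA stood in 3.06% of the members' windows and 13.6% of all windows, CCAAT in 26.5% and 37.4%, and GGGCGG, the core of a GC box, in 46.9% and 35.7%. The cyclic AMP response element TGACGTCA was in 0 of the 98 windows and in 1.79% of all. TTCAGCACC, letters from the element known for the repressor REST, was in 1 member window, that of Kcnh6 (1.02%), and in 0.371% of all. These matches describe letters in a window and nothing about binding.

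Among calcium channels, the alpha-1 subunits form the pore. Cacna1a, the pore of P/Q-type channels that serve hormone release, stood at 82.7 and 59.7 scaled CPM in beta, 130.2 and 97.0 in alpha, 119 and 104 in delta and 112 and 114 in PP cells. Beta cells lay below all other endocrine sums (log2 ratio against their mean -0.67 ± 0.11, adjusted p = 1.99e-05). The T-type pores Cacna1g, Cacna1h and Cacna1i, which open near the resting potential, were all called higher in delta cells. Cacna1h stood at 28.9 and 26.8 in delta cells, 1.22 and 1.18 in beta, 1.51 and 1.03 in alpha and 6.11 and 1.25 in PP cells, with no overlap between delta and any other type (log2 ratio 3.97 ± 0.22 (SE), adjusted p = 2.97e-12). Cacna1i, at 8.88 and 6.07 in delta cells, was under 1.5 in every other endocrine sum (log2 ratio 3.92 ± 0.44 (SE), adjusted p = 3.86e-07). Cacna1g was low everywhere, 3.33 and 2.28 in delta and 1.89 and 1.03 in alpha cells, and had 0 UMIs in PP cells. PP cells at 0 enter its call in delta cells (adjusted p = 0.00176), and the pair of delta and alpha cells was not called (0.92 ± 0.46, adjusted p = 0.126). The R-type pore Cacna1e was also higher in delta cells, with 9.43 and 6.32 in delta cells and 0.319 and 0.270 in beta cells (log2 ratio 3.77 ± 0.38 (SE), adjusted p = 6.68e-08). In total 4 of the 7 alpha-1 subunits tested were higher in delta cells and 4 of 7 lower in beta cells (all genes 17.8% and 16.9%). The L-type pore Cacna1c was the only one of the 7 called higher in beta cells (log2 ratio 0.55 ± 0.17 (SE), adjusted p = 0.0101). It stood at 17.9 and 15.6 scaled CPM in beta, 16.1 and 15.5 in alpha, 11.7 and 15.9 in delta and 6.11 and 7.49 in PP cells, so beta cells overlapped alpha and delta cells. Of the pairs, beta cells were called above PP cells (1.28 ± 0.39, adjusted p = 0.0169) and not above alpha (0.08 ± 0.14, adjusted p = 0.669) or delta cells (0.30 ± 0.17, adjusted p = 0.151). Cacna1b, the N-type pore, had a narrow range, from 6.11 to 11.2 over all 8 endocrine sums, and was called lower in beta cells (-0.60 ± 0.20, adjusted p = 0.0188).

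Alpha-2-delta subunits help calcium channels reach the cell surface, and their genes differed in which types held them. Cacna2d1 ranged from 71.8 scaled CPM in delta to 99.4 in PP cells and passed the edgeR threshold in 0 of the 4 types (unadjusted p under 0.05 in 1, delta cells). Cacna2d2 reached 32.4 and 32.9 in delta cells against 1.65 and 1.48 in beta and 1.23 and 0.646 in alpha cells (log2 ratio 4.13 ± 0.23 (SE), adjusted p = 5.68e-12). Cacna2d3 was 12.0 and 18 in delta, 12.2 and 13.7 in PP, 3.12 and 2.58 in alpha and 0.639 and 0.842 in beta cells. Delta and PP cells overlapped at the top, and beta cells lay below every other sum. Its ratio was 2.27 ± 0.23, adjusted p = 5.65e-08 in delta and -3.45 ± 0.29, adjusted p = 2.79e-09 in beta cells. Cacna2d4 was 5.01 and 4.65 in alpha cells and at most 1.53 elsewhere (log2 ratio 4.50 ± 0.47 (SE), adjusted p = 1.48e-07). Among gamma-family genes, which code for proteins related to the AMPA receptor partner stargazin, Cacng4 stood at 27.5 and 22.3 in alpha cells and at 0.799 and 0.236 in beta cells (log2 ratio 3.89 ± 0.27 (SE), adjusted p = 1.66e-10), whereas Cacng2 (stargazin itself) stood at 11.5 and 8.09 in delta cells and 0.473 and 0.387 in alpha cells (log2 ratio 3.82 ± 0.35 (SE), adjusted p = 1.62e-08). In PP cells Cacng4 was 1.53 and 17.5, so its call there (2.21 ± 0.64, adjusted p = 0.0271) rested on the library with HC alone, and the ratio was -0.39 without that library. It was not called with DESeq2 (adjusted p = 0.200) or without the library block (adjusted p = 0.114). The lower call of Cacng2 in alpha cells (-2.15 ± 0.71, adjusted p = 0.0231) was lost without cells that carried acinar RNA (-2.0, adjusted p = 0.105). Cacnb2, a beta subunit that binds the pore inside the cell, was 59.2 and 30.6 in delta, 48.8 and 28.8 in alpha and 27.7 and 16.9 in beta cells, with the library with gluten higher in each type. Cacnb1, another beta subunit, was 6.84 and 5.31 in delta and 2.40 and 1.72 in beta cells (log2 ratio -1.32 ± 0.31 (SE), adjusted p = 0.00117).

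Sodium channels start the fast upstroke of the action potential. Of 4 alpha subunit genes tested among endocrine types, 3 were lower in beta cells and 3 higher in delta cells (all genes 16.9% and 17.8%). Scn9a was 114 and 124 in delta and 40.6 and 41.3 in beta cells, with 28.1 and 29.7 in alpha and 30.6 and 46.2 in PP cells. Delta cells were above each other type without overlap (log2 ratio 1.73 ± 0.10 (SE), adjusted p = 1.68e-11). Scn3a separated beta cells from the rest. It was 66.3 and 63.2 in alpha, 50.7 and 61.2 in delta and 59.6 and 68.6 in PP cells but 4.95 and 5.39 in beta cells (log2 ratio -3.57 ± 0.13 (SE), adjusted p = 3.11e-15). Beta cells lay below every other sum, and alpha, delta and PP cells overlapped. Scn2a, at 0.266 and 0.135 in beta cells and between 1.81 and 6.11 in the other types, was also low in beta cells (log2 ratio -4.01 ± 0.47 (SE), adjusted p = 3.48e-07). Its higher call in PP cells (2.35 ± 0.67, adjusted p = 0.0239) was lost without cells that carried acinar RNA, where the ratio was as large within its error (2.25, adjusted p = 0.0508). Scn8a, from 15.2 to 22.9 over all sums, was not called by edgeR in any type, and its lowest unadjusted p was 0.0897. Scn3a, Scn2a, Scn9a and Scn7a lie in 1 cluster on chromosome 2 (mm10, GENCODE vM21), from Scn3a at chr2:65457118-65567627 to Scn7a at chr2:66673425-66784914. Of these neighbours, Scn3a and Scn2a were both lower in beta cells than in each other endocrine type, and alpha, delta and PP cells were not called apart in either. Scn9a was highest in delta cells and Scn7a in Schwann cells.

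The sodium beta subunits, single-pass proteins that tune gating and adhesion, sorted the endocrine types further. Scn3b was 58.6 and 55.9 in delta and 2.56 and 3.44 in beta cells, with 9.17 and 9.04 in alpha and 16.8 and 20.0 in PP cells (log2 ratio 2.84 ± 0.13 (SE), adjusted p = 1.18e-13). No library of delta cells overlapped another type. Scn2b, at 8.13 and 9.69 in alpha cells, stayed under 1 in beta cells (log2 ratio -3.00 ± 0.35 (SE), adjusted p = 4.14e-07).

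Voltage-gated potassium alpha subunits end the action potential. Kcnb2, a delayed rectifier, was high in delta cells (25.7 and 27.1) beside 9.32 and 8.69 in beta and 6.43 and 6.85 in alpha cells (log2 ratio 2.27 ± 0.19 (SE), adjusted p = 4.81e-09). PP cells were lowest at 1.53 and 3.74, a call (-2.08 ± 0.52, adjusted p = 0.0102) that DESeq2 did not make (adjusted p = 0.127). Genes of fast potassium currents were higher in delta cells. The A-type subunit Kcnd2 stood at 20.3 and 19.5 in delta cells and at 0.958 and 0.674 in beta cells (log2 ratio 4.16 ± 0.25 (SE), adjusted p = 2.11e-11), and the fast delayed rectifier Kcnc2 at 26.8 and 23.8 and 1.12 and 1.35 (log2 ratio 3.67 ± 0.23 (SE), adjusted p = 2.66e-11). Both delta libraries lay above all 6 other endocrine sums in each of these genes. Kcna5, a Shaker-type subunit, was 7.03 and 7.08 in delta and 2.55 and 2.58 in alpha cells and had 0 UMIs in PP cells. Delta cells were above beta cells (4.85 ± 0.43, adjusted p = 7.9e-09), and the higher call in alpha cells (adjusted p = 0.0143) was lost when classes came from clusters (0.69, adjusted p = 0.111). Kcnc4, of the same branch as Kcnc2, was at 3.21 and 1.68 in alpha cells and had 0 UMIs in PP cells (alpha adjusted p = 4.8e-05). Over the family, 8 of 18 tested alpha subunits were higher and 4 lower in delta cells, 5 higher and 4 lower in alpha cells, and 3 higher and 4 lower in beta cells. Over all genes the shares were 17.8% and 10.8% in delta, 21.3% and 13% in alpha and 32.7% and 16.9% in beta cells, so the alpha-cell counts lie near them.

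Members of the ether-a-go-go branch, Kcnh genes, went different ways. Kcnh6, an ERG-type subunit, was 11.2 and 8.52 in alpha, 12.2 and 8.74 in PP and 4.47 and 2.33 in beta cells, and had 0 UMIs in both delta sums. The floor of 3 counts over both delta sums puts alpha cells at least 31.3-fold, PP cells at least 32.2-fold and beta cells at least 9.85-fold above delta cells (adjusted p = 2.1e-07). Kcnh2, the ERG subunit known from the heart, ranged from 16.2 to 33.6, both in PP cells, and was called by edgeR in 0 of 4 types (unadjusted p under 0.05 in 2). Kcnh1 was 6.07 and 7.62 in beta cells (log2 ratio 2.18 ± 0.29 (SE), adjusted p = 1.71e-06), with 0.925 and 0.759 in delta cells, a lower call there (-1.75 ± 0.55, adjusted p = 0.0202) that was lost without the library block (adjusted p = 0.0654). Kcnh7 was 6.10 and 4.81 in delta and 0.284 and 0.387 in alpha cells, and its lower call in alpha cells (-2.10 ± 0.75, adjusted p = 0.0349) was lost without the block (-2.07, adjusted p = 0.0554) or without cells that carried acinar RNA (-2.08, adjusted p = 0.0519), at nearly the same ratio. Kcnh8 was 10.2 and 8.60 in delta and 4.82 and 4.65 in alpha cells (log2 ratio 0.88 ± 0.24 (SE), adjusted p = 0.00759), and Kcnh3, 3.51 and 3.54 in delta and 2.74 and 2.97 in alpha cells, was called in no endocrine type, with a lowest unadjusted p of 0.0647 in edgeR.

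Potassium channel genes higher in beta cells than in each other type were few. Kcnf1, a subunit that forms no channel by itself, was 4.05 and 3.34 in beta, 0.370 and 1.26 in delta and at most 0.0945 in alpha cells, with 0 UMIs in PP cells. Beta cells were above delta cells by 2.28 ± 0.51, adjusted p = 0.000993 and above alpha cells by 5.78 ± 0.69, adjusted p = 5.71e-07 on the log2 scale. The strong inward rectifier Kcnj12 was 15.9 and 9.81 in beta cells and had 0 UMIs in delta cells, at least 37.9-fold lower (adjusted p = 2.52e-11 in beta cells). Its lower call in delta cells (adjusted p = 0.0217) was lost without the library block (adjusted p = 0.0947). In both genes the beta libraries were above all other endocrine sums. Outside the endocrine types, Kcnf1 was 3.34 and 3.26 in T cells and Kcnj12 18.7 and 8.33 in Schwann cells, the latter from 4 and 3 UMIs.

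Auxiliary subunits of A-type channels, the calcium-binding Kcnip proteins, differed from each other in which types held them. Kcnip1 was 52.2 and 49.6 in delta and 35.5 and 35.0 in beta cells but 1.98 and 2.20 in alpha and 6.11 and 2.50 in PP cells. The ratio was 2.21 ± 0.15, adjusted p = 5.85e-11 in beta, 2.92 ± 0.15, adjusted p = 1.46e-12 in delta and -3.23 ± 0.35, adjusted p = 2.41e-07 in alpha cells, while DESeq2 did not call it in PP cells (adjusted p = 0.0749). Kcnip3, which also acts as a calcium-dependent repressor of transcription, ran the other way, with 17.5 and 11.1 in alpha and 18.3 and 9.98 in PP cells against 3.51 and 2.93 in beta and 3.70 and 4.30 in delta cells. Alpha cells were higher (1.34 ± 0.19, adjusted p = 9.48e-06), and the call in PP cells (1.30 ± 0.39, adjusted p = 0.0321) was lost without the library block (adjusted p = 0.0936). Kcnip4 was highest in delta cells, 13.7 and 7.84 (log2 ratio 1.94 ± 0.25 (SE), adjusted p = 3.56e-06), above beta and alpha cells but not called above PP cells (0.95 ± 0.51, adjusted p = 0.243).

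The G-protein-gated inward rectifiers Kcnj3 and Kcnj6, through which inhibitory receptors such as those for somatostatin hyperpolarise a cell, were low in beta cells. Kcnj3 was 16.0 and 17.7 in alpha, 6.47 and 4.55 in delta, 6.11 and 3.74 in PP and 0.266 and 0.270 in beta cells. Alpha cells were above and beta cells below every other sum (alpha 3.09 ± 0.22, adjusted p = 2.48e-10 and beta -4.77 ± 0.47, adjusted p = 2.56e-08). Kcnj6 was 11.8 and 13.0 in alpha and 2.56 and 1.89 in beta cells, lower in beta cells than in each other type (log2 ratio -1.93 ± 0.27 (SE), adjusted p = 3.92e-06). Kcnj4, a strong rectifier related to Kcnj12, was 7.03 and 6.58 in delta cells with 0.160 and 0.270 in beta cells (log2 ratio 3.43 ± 0.40 (SE), adjusted p = 5.74e-07).

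Two-pore channels set the resting potential. Kcnk16, an islet channel known as TALK-1, stood at 167 and 219.6 scaled CPM in PP, 152 and 159.8 in alpha, 115 and 126 in delta and 86.3 and 93.8 in beta cells, in that order in both libraries. Beta cells were below each other type (log2 ratio -0.77 ± 0.10 (SE), adjusted p = 1.52e-06), and delta and alpha cells differed by 0.37 ± 0.12, adjusted p = 0.0168. Acid-sensitive Kcnk3 had a far wider range, 94.4 and 81.1 in alpha, 67.3 and 56.2 in PP, 9.06 and 9.87 in delta and 1.76 and 0.943 in beta cells, with no overlap between any 2 types. Its ratio was -4.83 ± 0.18, adjusted p = 2.75e-15 in beta and 3.27 ± 0.12, adjusted p = 3.83e-15 in alpha cells. Kcnk1 was led by delta cells (82.1 and 80.9, log2 ratio 0.98 ± 0.12 (SE), adjusted p = 1.48e-06), ahead of 50.8 and 44.6 in alpha and 32.4 and 36.1 in beta cells. Mechanosensitive Kcnk2 was at 0.213 and 0.0674 in beta and 3.78 and 3.62 in alpha cells (log2 ratio -4.30 ± 1.02 (SE), adjusted p = 0.00135 in beta cells), and delta cells differed between libraries (7.03 and 1.52). Kcnk12, known as THIK-2, was 44.3 and 28.7 in PP and 20.2 and 16.9 in beta cells (log2 ratio -0.78 ± 0.11 (SE), adjusted p = 8.03e-06). In all 5 of the 6 two-pore genes tested were lower in beta cells (all genes 16.9%).

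Of calcium-activated potassium channels, the pore of the large-conductance channel, Kcnma1, was 28.4 and 33.6 in beta, 34.9 and 37.5 in alpha, 35.0 and 34.4 in delta and 15.3 and 12.5 in PP cells, the lowest without overlap (log2 ratio -1.31 ± 0.25 (SE), adjusted p = 0.00108). Its accessory subunit Kcnmb2 was 133 and 124 in delta, 108 and 97.3 in beta, 74.9 and 74.9 in PP and 58.9 and 49.9 in alpha cells, and alpha cells were below each other type (log2 ratio -0.88 ± 0.11 (SE), adjusted p = 1.06e-06). The smooth-muscle accessory subunit Kcnmb1 reached 6.29 and 5.82 in delta cells and 0.799 and 0.741 in beta cells, with 0 UMIs in PP cells, at least 2.95-fold below delta cells (delta adjusted p = 1.21e-06). The small-conductance channel Kcnn3 was 14.0 and 11.6 in beta, 10.5 and 8.14 in alpha and 12.2 and 4.99 in PP cells but under 1 in delta cells (0.925 and 0.759, log2 ratio -3.55 ± 0.39 (SE), adjusted p = 2.86e-07). Kcnn2, of the same group, was 7.58 and 6.58 in delta and 2.29 and 1.85 in beta cells (log2 ratio 1.22 ± 0.29 (SE), adjusted p = 0.00242), and Kcnu1, a relative of Kcnma1, 6.23 and 6.50 in beta cells (log2 ratio 0.65 ± 0.25 (SE), adjusted p = 0.0343). Kcnq1ot1, a non-coding RNA read antisense to Kcnq1 and tied to its imprinting, ranged from 169 and 179 in beta to 321 and 359.7 in alpha cells. Whether counting used the strand is not given in the sources used here, so its reads and those of Kcnq1 cannot be told apart where they overlap.

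In all, 13 members passed the filter in neither this comparison nor the one below. Kcnh5 had 49 of its 60 UMIs in beta cells, Kcng3 34 of 59, Kcnq3 95 of 133, Kcnab3 121 of 196 and Kcnn1 68 of 140, with at most 17 in any other class. Kcnk7 had 71 of 114 in T cells and Cacna1f 31 of 57 in macrophages. Cacnb4, Cacng8, Kcnk10, Kcnq5, Kcnj2 and Kcnmb4os2 were spread over classes, with at most 23 UMIs in 1 of them.

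For the other cells, a second edgeR fit over all classes and 13080 genes compared each non-endocrine class with the mean of the 4 endocrine types, and 64 members passed its filter. Most called members were lower. Here too a member can pass the filter through a class where it is high. The counts and medians therefore describe the members that passed and support nothing more. In Schwann cells 12 members were higher and 18 lower (16.1% and 15.3% of all genes), in pericytes 13 and 17 (17.7% and 15.3%), in fibroblasts 16 and 28 (30.4% and 22.3%) and in endothelial cells 9 and 35 (29% and 26.2%). In T cells 16 were higher and 38 lower (37.5% and 34.2%), in B cells 8 and 39 (32.4% and 34%), in macrophages 11 and 35 (31.9% and 31.5%), and in dendritic cells 8 and 33 (28% and 31.6%). The higher members numbered 9 in T cells and 10 in fibroblasts with DESeq2, and 8 in T cells when classes came from clusters. The members' median log2 ratio was -3.95 in T cells, -3.97 in B cells and -3.11 in macrophages, and -3.64, -2.85 and -2.15 with classes at 0 set at the floor of 3 counts. Over all genes it was 0.07, -0.07 and -0.06. In Schwann cells and pericytes, with few UMIs, the members' median went from -3.22 and -1.44 to 0.66 and 0.60 at the floor, so its sign there is set by the zeros. Of the 64 members, 33 were called higher in at least 1 of these 8 classes, and 62.6% of all genes were, so this count is no more than the background.

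**Figure D3:**
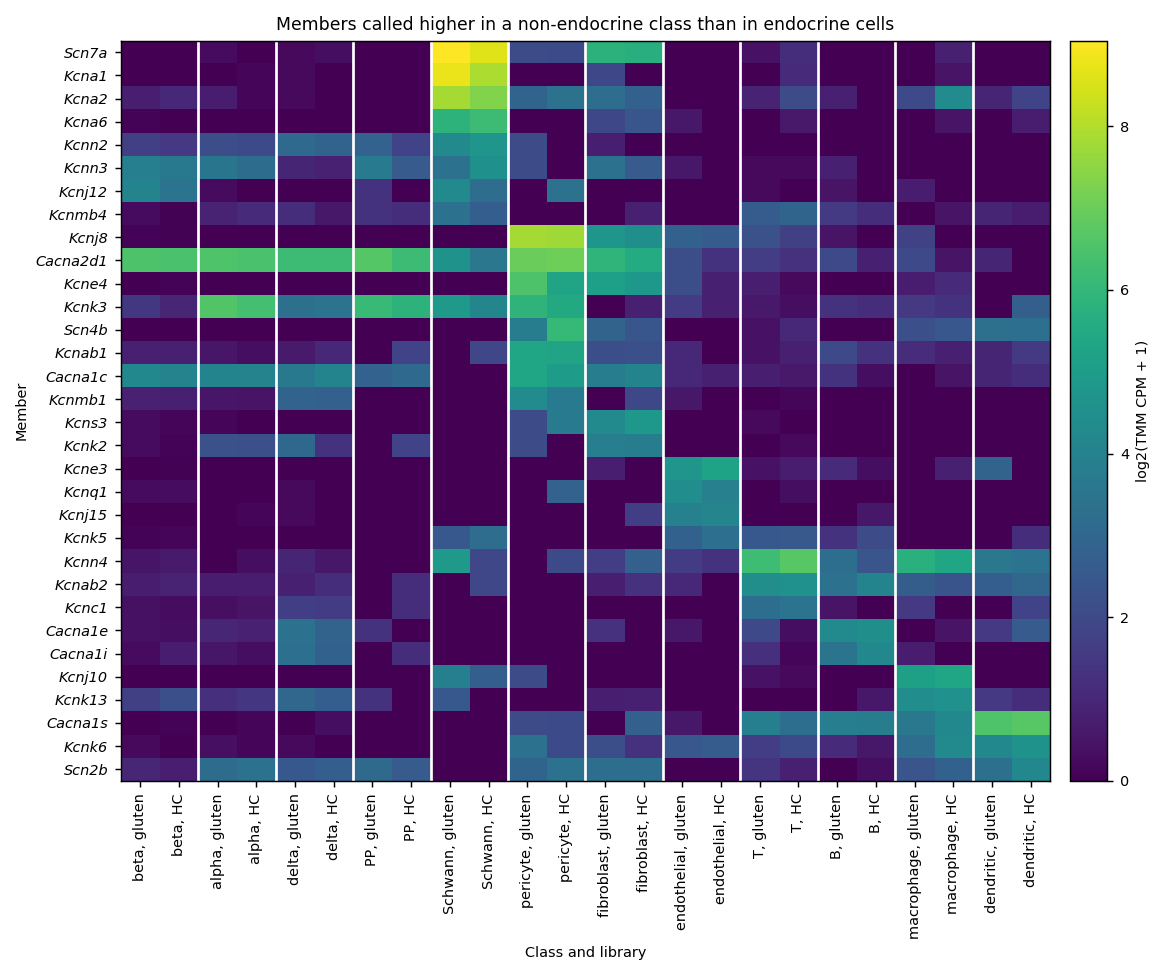
Heat map of log2(scaled CPM + 1) for 32 of the 33 members called higher in at least 1 of 8 non-endocrine classes than in endocrine cells (rows), in 12 classes and 2 libraries (columns). Rows are ordered by the class of the highest level among those where the member was called higher. Scn7a, Kcna1 and Kcna2 are brightest in Schwann cells, Kcnj8 in pericytes, Kcnn4 in T cells and Cacna1s in dendritic cells.

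Schwann cells, the glia of islet nerves, carried Shaker-type potassium channels and the sodium-sensing channel Scn7a. Each library had 28 of these cells, with a median of 9 of 14 Schwann markers per cell. Scn7a, which senses extracellular sodium, stood at 527 and 386 scaled CPM (113 and 139 UMIs). It had 0 UMIs in both beta sums, so Schwann cells were at least 7088-fold above beta cells (adjusted p = 6.82e-15 against the endocrine mean). In fibroblasts it was 54.9 and 50.9. The acinar-gated class of the library with gluten held 32 UMIs of Scn7a, from 3.23% of its 93 cells, and that of the library with HC alone 0 in 17 cells. Scn7a was seen in 89.3% (71.8 to 97.7) and 82.1% (63.1 to 93.9) of Schwann cells, and in 16 of 26 and 14 of 28 once each cell was thinned to 1000 UMIs, which left out 2 shallower cells of the library with gluten. In B cells, which should lack it, the share was 0 of 980 and 0 of 1173 cells, which allows a share of cells with a UMI of up to 0.376% and 0.314% and sets no limit on cells that express the gene at this depth. Intervals on shares are exact Clopper-Pearson 95% intervals and cover counting error only. Kcna1 was 434 and 242, Kcna2 229 and 161 and Kcna6 56.0 and 72.2, Shaker-type subunits known from myelinated nerve. Beta cells had 0 UMIs of Kcna1, at least 5063-fold fewer, though DESeq2 did not call this gene (adjusted p = 9.8e-13 with edgeR, 0.132 with DESeq2). Kcna2 was at least 90.4-fold above PP cells, which had 0 UMIs (adjusted p = 7.24e-12). Both libraries showed each of these genes far above every endocrine sum. Kcna1 at chr6:126640397-126646384 and Kcna6 at chr6:126708329-126740674 lie close to Kcna5 (chr6:126532551-126535412, mm10), whose highest endocrine level was in delta cells. Kcnn2, a small-conductance channel, was 18.7 and 25.0 (log2 ratio 2.61 ± 0.59 (SE), adjusted p = 0.00213). Kcnj10, the glial inward rectifier, rested on 3 and 2 UMIs in Schwann cells. Macrophage-list genes, Apoe among them, reached 30002 and 16902 CPM in Schwann cells, with a median of 1 of 9 macrophage markers per cell, and their part in these results was not tested.

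Pericytes, the contractile cells of capillaries, carried the vascular ATP-sensitive channel. Its pore Kcnj8 was 226 and 216 scaled CPM, from 70 and 69 UMIs. Alpha, delta and PP cells had 0 UMIs, so pericytes were at least 1351-fold, 689.9-fold and 107-fold higher (adjusted p = 8.63e-14). Its regulatory partner Abcc9, from the list of partner genes, was 255 and 163 in pericytes and at most 0.258 in endocrine sums, where Abcc8, the partner of the islet form, was 302 and 258 in beta cells and 3.23 and 3.13 in pericytes. Kcnj8 was seen in 49.3% (37.0 to 61.6) and 47.4% (31.0 to 64.2) of pericytes and in 30.8% and 18.9% after thinning to 1000 UMIs (4 and 1 cells left out), against 1 of 980 and 0 of 1173 B cells. Kcnmb1, the smooth-muscle subunit named above, was 19.4 and 12.5 in pericytes (adjusted p = 0.00064). The auxiliary subunit Kcne4 was 90.4 and 37.6 and had 0 UMIs in alpha cells, at least 389-fold fewer. Scn4b (12.9 and 65.8) and Kcns3 (3.23 and 12.5) differed more between the libraries, and DESeq2 did not call them (adjusted p = 0.124 and 0.483). Cacna2d1, 126 and 132, was above the endocrine mean by 0.63 ± 0.23, adjusted p = 0.0355, and the L-type pore Cacna1c, 38.8 and 31.3, by 1.48 ± 0.38, adjusted p = 0.00371. Kcnk3 was 58.1 and 43.9, overlapping PP cells. The auxiliary subunit Kcnab1 was 38.8 and 37.6 (log2 ratio 5.63 ± 0.57 (SE), adjusted p = 1.91e-08). The marker lists of fibroblasts and endothelial cells reached 1207 and 1649 CPM and 1756 and 1953 CPM in the pericytes, and their part in these results was not tested.

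In fibroblasts Kcns3, a silent subunit, was 19.3 and 27.6 and Kcnk2 13.5 and 13.1, in both libraries above every other class. Kcns3 had 0 UMIs in delta cells, at least 73.0-fold fewer (adjusted p = 3.82e-09), and the ratio of Kcnk2 was 3.28 ± 0.55, adjusted p = 5.95e-05. Endothelial cells stood apart by Kcne3 (25.3 and 37.3), its partner pore Kcnq1 (20.7 and 14.2) and the inward rectifier Kcnj15 (14.7 and 16.4). Kcnq1 had 0 UMIs in alpha cells, at least 110.5-fold fewer (adjusted p = 1.66e-08), and was 33.3 and 22.9 in ductal cells, and Kcne3 had 0 UMIs in alpha cells, at least 184-fold fewer. These genes were named for their family role or level after their values were seen.

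Immune cells held Kcnn4, the intermediate-conductance calcium-activated channel that sustains calcium entry in lymphocytes. It stood at 73.7 and 103 scaled CPM in T cells, 53.1 and 39.5 in macrophages and 8.62 and 4.27 in B cells, against at most 0.925 in endocrine sums. T cells and macrophages did not overlap with B cells. The log2 ratio over the endocrine mean, which includes PP cells at 0 UMIs, had adjusted p = 4.53e-18 in T cells and adjusted p = 1.07e-14 in macrophages, and T cells were at least 45.2-fold above PP cells. Kcnn4 was seen in 22.1% (19.9 to 24.5) and 33.9% (31.9 to 35.9) of T cells and 1.94% (1.17 to 3.01) and 1.11% (0.591 to 1.89) of B cells, where the median cell held 2417 and 2807 UMIs (T) and 2165 and 2677 UMIs (B). After thinning to 1000 UMIs the shares were 8.22% and 12.9% of T and 0.538% and 0% of B cells, with 26 and 42 T cells and 51 and 64 B cells left out. In beta cells, at a median of 27449 and 37085 UMIs, the unthinned share was 0.620% (0.268 to 1.22) and 1.07% (0.625 to 1.71). Kcnn4 was also 81.5 and 153 in plasma cells (40 and 19 cells) and 68.2 and 64.0 in ductal cells, which were not tested. The Kv auxiliary subunit Kcnab2 was 21.3 and 23.1 in T cells and 9.37 and 15.8 in B cells (log2 ratio 4.81 ± 0.27 (SE), adjusted p = 1.57e-14 in T cells). Kcnc1 was 8.62 and 9.95 in T cells (log2 ratio 3.87 ± 0.45 (SE), adjusted p = 1.78e-07), and in endocrine cells was highest in delta cells (2.22 and 2.02). Of the 16 higher calls in T cells 7 (Scn4b, Kcne3, Kcna1, Scn7a, Kcne4, Kcna6 and Kcnj10) rested on under 1.5 scaled CPM and at most 14 UMIs in each library. Kcnmb4, an accessory subunit of the large-conductance channel, was 5.27 and 6.51 in T and 28.8 and 31.4 in plasma cells (T cells 3.17 ± 0.39, adjusted p = 1.84e-07). The directions of Kcna1 and Kcna6 were not the same in each library alone, with 0 UMIs of both in the T cells with gluten.

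Calcium channel pores were also recorded in immune cells. Cacna1s, the L-type pore of skeletal muscle, was 93.8 and 102 in dendritic cells and 187 and 153 in plasma cells, from 78 and 39 UMIs in the latter, and stood at 11.5 and 17.7 in macrophages, 13.9 and 8.68 in T and 13.5 and 13.1 in B cells. Beta cells held 0 and 2 UMIs and PP cells 0, and dendritic cells were at least 47.9-fold above PP cells (adjusted p = 2.45e-16 against the endocrine mean). In B cells the R-type pore Cacna1e (19.1 and 21.6) and the T-type pore Cacna1i (10.1 and 17.9) were in both libraries above the delta-cell levels given above, and B cells were above the endocrine mean by 4.20 ± 0.44, adjusted p = 1.48e-08 and 3.82 ± 0.51, adjusted p = 2.32e-06. Among macrophages Kcnj10 was 34.4 and 39.1 and had 0 UMIs in all 4 endocrine types. Macrophages were at least 602-fold above beta cells (adjusted p = 1.79e-10 with edgeR, 0.168 with DESeq2). Kcnk13, the two-pore channel THIK-1 of microglia, was 20.5 and 22.6 (log2 ratio 3.34 ± 0.36 (SE), adjusted p = 9.5e-08), and Kcnk6, another two-pore gene, 8.44 and 18.8 in macrophages and 17.5 and 23.8 in dendritic cells. Kcnk5, a two-pore gene, was 4.57 and 4.79 in T cells and had 0 UMIs in alpha cells, at least 28.8-fold below T cells. Free RNA of other cells gives UMIs in droplets, and T cells held 10382 and 7185 CPM of insulin and 1.58 and 0.723 scaled CPM of the islet channel Kcnk16. Kcnd1, an A-type subunit, was spread over fibroblasts (4.99 and 4.36), dendritic cells (5.51 and 2.50) and macrophages (4.22 and 3.76). It did not pass the filter of the fit over all classes, so these classes were not tested for it. Among endocrine types edgeR called it in none, with a lowest unadjusted p of 0.273.

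Other genes of the pathway were taken as lists by function. The list of partners and other cation transport held 50 genes, of which 41 were tested among endocrine types, and the list of exocytosis genes held 23, of which 21 were tested. Of the partner list 17 were higher and 4 lower in delta cells, 14 and 10 in beta, 11 and 9 in alpha, and 2 and 8 in PP cells. Of the exocytosis list 4 were higher and 8 lower in delta cells, 10 and 5 in beta, 9 and 2 in alpha, and 1 and 4 in PP cells. Over all genes 17.8% were higher and 10.8% lower in delta, 32.7% and 16.9% in beta, 21.3% and 13% in alpha, and 3.1% and 9.19% in PP cells. The partner and exocytosis medians were 0.16 and -0.08 in delta (all genes 0.05) and 0.03 and 0.26 in beta cells (all genes 0.16). Trpm5, a cation channel opened by calcium, was 327 and 259 in beta and 1.23 and 0.904 in alpha cells (beta 8.01 ± 0.15, adjusted p = 1.59e-20). The pacemaker channel Hcn4 was 10.5 and 9.11 in delta and 0.756 and 1.03 in alpha cells (delta 2.27 ± 0.30, adjusted p = 4.23e-06). Cadps, which primes dense-core vesicles, was 131 and 111 in alpha and 5.92 and 5.31 in delta cells (delta -3.86 ± 0.16, adjusted p = 4.66e-14). The 3 channel genes left out of the members were in these lists. Kcnj11, the pore of the islet ATP-sensitive channel, was 26.8 and 26.3 in beta and 41.8 and 41.2 in delta cells, and the L-type pore Cacna1d 40.8 and 51.1 in beta and 25.0 and 37.2 in delta cells. Cacnb3, a calcium channel beta subunit, was 21.1 and 16.0 in beta and 45.1 and 37.7 in delta cells. Between beta cells and the other types they differed by -0.47 ± 0.13, adjusted p = 0.00392 (Kcnj11), 0.33 ± 0.12, adjusted p = 0.0255 (Cacna1d) and -0.70 ± 0.15, adjusted p = 0.000505 (Cacnb3). In T cells 22 of 42 tested partner genes and 19 of 21 exocytosis genes were lower than in endocrine cells, beside 34.2% of all genes.

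Between the diets there is 1 library each, so no test was made. A log2 ratio of the library with gluten over the library with HC alone is given with an exact 95% interval in brackets, which covers counting error only, on plain CPM of the class total. A member was measured where the library with the higher CPM held at least 50 UMIs, and apart at 2-fold or more. Of 34 members measured in beta cells, 33 in alpha and 28 in delta cells, 0 were apart by 2-fold (1.78%, 2.36% and 2.29% of all genes measured). The count was also 0 of 6 in PP cells (3.71%), 2 in Schwann cells (5.09%), 2 in pericytes (7.71%), 4 in fibroblasts (5.1%), 3 in endothelial cells (2.84%), 9 in T cells (4.87%), 5 in B cells (4.46%) and 2 in dendritic cells (4.45%). Macrophages had 2 of 7 apart (4.76%) and ductal cells 1 of 2 (15.6%).

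Smaller differences exceeded counting error. In beta cells 12 of 34 members had an interval above 0 and 2 below (18% and 20.8% of all genes), in alpha cells 10 and 1 of 33 (22.3% and 11.3%) and in delta cells 2 and 6 of 28 (8.82% and 13.6%). These counts moved with the scaling. On CPM without hormone, acinar and mitochondrial genes alpha cells had 5 above and 2 below of 31 (15.0% and 18.5% of all genes) and delta cells 2 and 4, and with scaling by trimmed mean of M values beta cells had 9 and 5 and delta cells 3 and 2. Under the other settings (gates, doublets, mitochondrial limit, clusters, acinar cells, 20 UMIs) beta cells had 11 to 15 above and 1 to 3 below, alpha cells 10 to 12 and 1, and delta cells 1 to 3 and 5 to 6. Cacnb2, the calcium channel beta subunit, was higher with gluten in all 3 types. It stood at 13.3 and 7.92 CPM in beta, 42.5 and 24.9 in alpha and 65.8 and 36.0 in delta cells, log2 ratios of 0.75 [0.57, 0.93], 0.77 [0.54, 1.01] and 0.87 [0.56, 1.18]. Cacna1a, the P/Q-type pore, was 39.7 and 27.9 CPM in beta cells (0.51 [0.41, 0.61]) and 113 and 83.8 in alpha cells (0.44 [0.31, 0.57]). Also in beta cells Kcnh6 was 2.15 and 1.09 CPM (0.98 [0.51, 1.46]) and the rectifier Kcnj12 7.62 and 4.58 (0.73 [0.50, 0.97]), both higher with gluten. Kcnk13 at 1.10 and 1.67 (-0.60 [-1.15, -0.08]) and Kcnma1 (-0.20 [-0.36, -0.05]) were lower. In alpha cells Kcnip3 was 15.2 and 9.59 CPM (0.67 [0.29, 1.05]). In delta cells Kcnip4 (0.72 [0.10, 1.38]) was higher with gluten, and Cacna2d3 (-0.66 [-1.17, -0.16]), Scn3a (-0.35 [-0.61, -0.10]) and Kcnk16 (-0.21 [-0.38, -0.03]) lower. With scaling by trimmed mean of M values, the difference of Kcnk16 no longer exceeded counting error. Cells with at least 10 UMIs of acinar genes made up 8.84% and 1.70% of beta, 10.2% and 0.814% of alpha and 14.7% and 15.6% of delta cells, and without them the ratios of Cacnb2 were 0.75, 0.81 and 0.88.

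**Figure D4:**
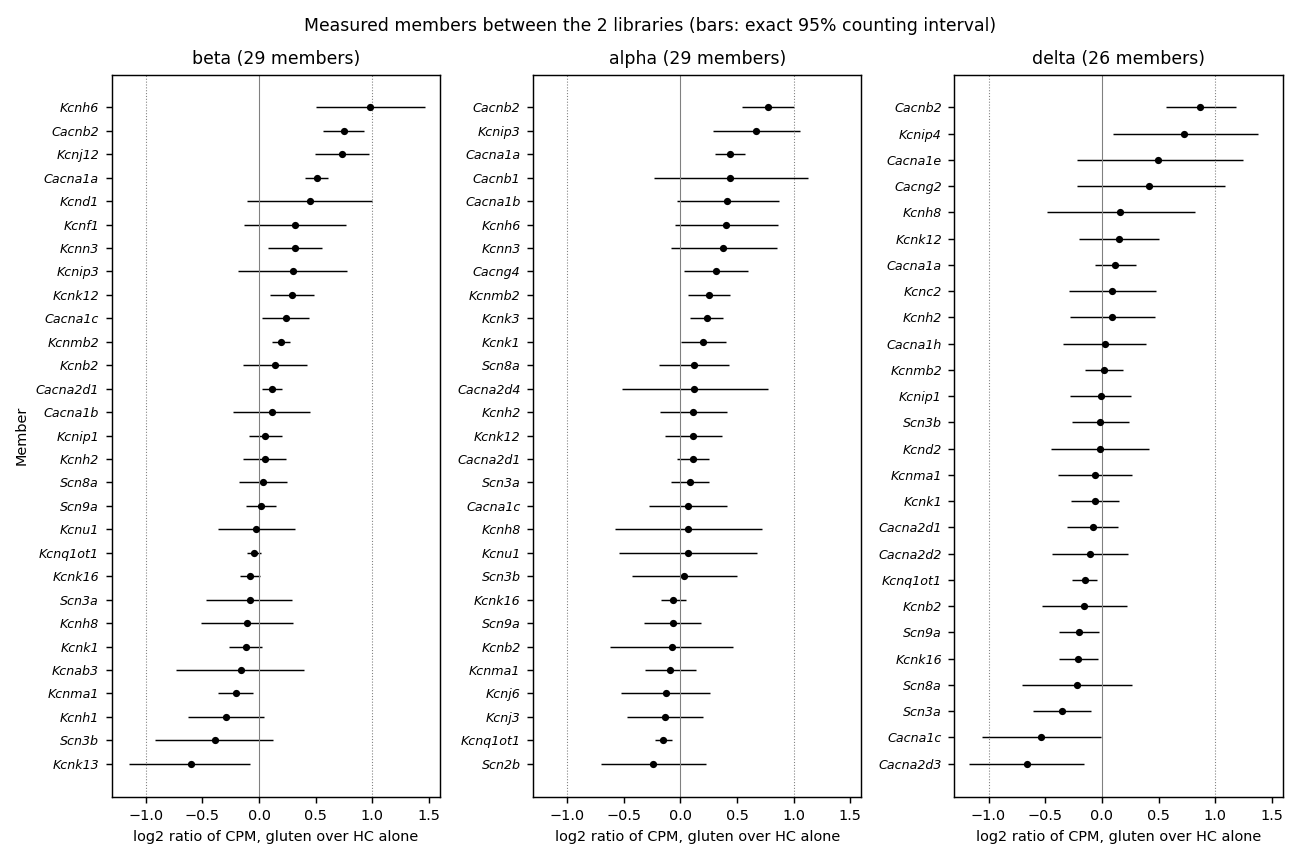
Log2 ratio of CPM, library with gluten over library with HC alone (x axis), of measured members (y axis) in beta (29), alpha (29) and delta cells (26), with exact 95% intervals that cover counting error only. Cacnb2 lies to the right of 0 in all 3 panels, and no point lies beyond a 2-fold difference.

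Among immune cells, Kcnq1ot1 was lower with gluten in T cells (81.8 and 133 CPM, -0.70 [-0.87, -0.54]), B cells (-0.36 [-0.59, -0.13]) and dendritic cells (-0.61 [-1.08, -0.15]), the last at -0.05 when classes came from clusters. The difference was not particular to these cells, since Kcnq1ot1 was also lower in alpha (-0.15 [-0.22, -0.08]) and delta cells (-0.15 [-0.26, -0.04]). In B and delta cells it no longer exceeded counting error with scaling by trimmed mean of M values. Kcnn4 in T cells was 82.0 and 122 CPM (-0.57 [-0.74, -0.41]), and Cacna1s there was higher with gluten, 15.5 and 10.3 (0.59 [0.14, 1.04]). In B cells Cacna1i (9.91 and 19.2 CPM, -0.95 [-1.65, -0.30]) and Kcnab2 (9.17 and 17.0, -0.89 [-1.62, -0.20]) were lower with gluten. In macrophages Kcna2 rested on 5 and 52 UMIs (2.95 and 19.4 CPM, -2.71 [-4.40, -1.40]) and Kcnk6 on 14 and 50 UMIs (8.27 and 18.6 CPM, -1.17 [-2.14, -0.30]), both lower with gluten. In ductal cells, with 28 and 33 cells, Kcnk1 was 266 and 124 CPM (1.10 [0.69, 1.52]), and 0.01 when classes came from clusters. Schwann cells had higher Kcna1 (661 and 347 CPM, 0.93 [0.49, 1.37]) and Scn7a (803 and 555 CPM, 0.53 [0.16, 0.90]) with gluten, at a median of 4653 and 9044 UMIs per cell.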

How the data were processed

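The authors deposited UMI counts per gene and cell barcode as a matrix for each of 2 libraries. Cell Ranger 4.0.0 and mm10 are named in the submitters' processing notes, and whether counting used the strand is not given in the sources used here. Of 31053 gene rows 30934 were matched to a symbol (GENCODE vM21).

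Barcodes with at least 500 UMIs, 200 genes and at most 20% mitochondrial UMIs were kept (7577 and 7565, the library with gluten first). Scrublet's own threshold marked 3 and 2 cells, so the 6% with the highest doublet scores were removed instead (455 and 454), which left 7122 and 7111 cells. The median cell held 6401 and 5460 UMIs. Endocrine cells were gated on a hormone of at least 5% of UMIs and at least 3 times every other hormone. Other classes were gated on at least 3 lineage markers and at most 4 pan-endocrine markers. The share of the marker list detected had to be larger than for any other class, by any margin. Gated cells were 6461 and 6730, of which 176 and 132 lay near the marker limit. Of all kept cells, gated or not, 176 and 82 lay near the hormone limit. Hormone-gated cells that carried markers of another lineage, 205 and 135, were dropped. Of the 15 shared barcodes 11 were kept.

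UMI counts were summed per class and library and tested with edgeR 4.0.16 (limma 3.58.1, R 4.3.3) by the quasi-likelihood test with Benjamini-Hochberg adjustment, trimmed-mean-of-M-values scaling, filterByExpr and the library as a block. The libraries are the replicates, and each pools 3 mice. With the library as a block, p-values measure how much class differences varied between the 2 libraries, which are also the 2 diets. On simulated counts for 12004 genes the endocrine test recovered 82.8% of 2-fold and 99% of 4-fold changes with 9 false calls. Changes were set in beta cells only, in genes with a mean of at least 20 UMIs per sum. All other genes were left unchanged, with the same spread for every gene and no library effect. For members with few UMIs, and for contrasts where many genes differ, these rates were not tested. Alternatives used DESeq2 1.42.0, other gates, clusters (Leiden, resolution 1, 2000 variable genes, 30 components, 15 neighbours; scanpy 1.11.5), no doublet removal and no cells with at least 10 acinar UMIs. Shares of cells were also taken after thinning each cell to 1000 UMIs. Diet ratios needed at least 20 cells per library and 50 UMIs. Python 3.11.15, numpy 2.4.6, scipy 1.17.1, pandas 2.3.3 and matplotlib 3.10.9 were used.

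The members and gene lists were chosen with earlier results of these data known. Genes were named by rule. In each endocrine type these were the 6 members with the highest mean CPM and up to 6 called members per direction with the largest ratio. In Schwann, pericyte, T, B and macrophage cells they were up to 4 by mean CPM and up to 4 called higher, and between diets up to 4 per class and direction. Others were named for their family role after their values were seen. Classes under 20 cells in a library entered no diet ratio. Some members counted here are not reported by name or shown singly.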

Additional observations from a re-analysis of the deposited data

How the results depend on the processing

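Of the counts of members called or apart, 403 stayed within 1.5 times the reported count under an alternative and 33 did not. The 403 include counts of 0 that stayed 0. Some alternatives also changed few cells, such as the hormone gate at 2%, with 1293 and 1588 beta cells beside 1290 and 1588. Counting only members that stood apart from each other endocrine type, an alternative chosen after seeing the data, gave 3 higher and 12 lower in beta, 1 and 1 in alpha, 16 and 3 in delta, and 0 and 1 in PP cells. The library is the block of every fit. With no replicate block the counts were 10 higher and 29 lower in beta, 18 and 11 in alpha, 28 and 6 in delta, and 6 and 3 in PP cells, so the lower members of delta cells fell from 10 to 6, all among the 10. No paired analysis of the diets was possible because each diet has 1 library. With DESeq2 the lower members of PP cells were 1, the higher members of fibroblasts 10 and those of T cells 9, and classes from clusters gave 8 in T cells and no PP class. The number of members at least 2-fold apart between the diets changed as follows. With doublets kept it was 2 in beta, 1 in alpha and 1 in T cells. With classes from clusters it was 1 in beta, 1 in alpha, 1 in B cells and 1 in macrophages. Without cells of 10 or more acinar UMIs it was 1 in beta and 0 in ductal cells, and on CPM without hormone, acinar and mitochondrial genes 1 in beta cells. With at least 20 UMIs it was 1 in delta cells, 2 in pericytes, 1 in fibroblasts, 1 in T and 1 in dendritic cells. With at most 10% mitochondrial UMIs it was 0 in ductal cells and 1 in macrophages, with scaling by trimmed mean of M values 0 in ductal cells, and with a hormone gate at 2% 1 in B cells and 1 in macrophages. Among named genes, 1200 values were counted as unchanged, 17 lost their call, 3 moved and 1 reversed. For a repeated test, unchanged meant the same direction and a kept call. With 1 library left out no test was made, and it meant the same direction only. For a diet ratio it meant a value within the main counting interval. The reversed value was Cacng4 in PP cells, at -0.39 without the library with HC alone and 3.40 without the library with gluten. The cause was not tested for any of these. The few Schwann cells (28 and 28) and PP cells (42 and 41) limit what could be detected there.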
